A study of Mus musculus with 5 samples.

Results

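The genes Dpp4, Fap, Dpp3, Dpp7, Dpp8, Dpp9 and Prep, which encode peptidases that cut beside proline or are named as dipeptidyl peptidases, were taken from the deposited count table by gene symbol and are 7 of its 54532 genes. Poly(A) RNA was sequenced from 5 libraries of mouse adipose-derived stem cells, the progenitor cells of the stromal fraction of fat. All were sorted from 30 wild-type mice on chow diet, aged 12 to 14 weeks, and the labels name no other allele or agent. Cells bearing CD31 or CD45, surface markers of endothelial and immune cells, had been removed, and CD26 and CD142 set the gates. CD26 is the protein that Dpp4 encodes, and CD142 is tissue factor, encoded by F3.

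There were 2 libraries from subcutaneous fat (SAT) and 3 from visceral fat (VAT). The labels of the SAT libraries conflict. SAT library 2 is titled CD26-CD142+ and its library name says CD26, while SAT library 1 is titled CD26+CD142- and its library name says CD142. For VAT, title and library name give the same gates, with 1 CD26+CD142+ library and a pair of CD26-CD142+ libraries, numbered 1 and 2. The labels do not say which mice went into which library, so the spread between libraries may be technical. In bulk RNA, fewer cells of a type and less RNA per cell cannot be told apart.

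Prolyl peptidases cut peptide bonds next to proline, an amino acid that shields many hormones and chemokines from other proteases. DPP4 and FAP are close relatives on the cell surface. DPP4 removes a pair of amino acids from the end of incretins and chemokines such as CXCL12, and in fat it marks interstitial progenitors. FAP also cuts inside proteins, including denatured collagen and antiplasmin, and is known from activated fibroblasts. DPP8, DPP9 and PREP act in the cytosol, and DPP7 acts in lysosomes and vesicles. DPP3 is a cytosolic zinc peptidase that shares the name but not the fold.

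Promoter sequence was looked up in RefSeq (GRCm38.p6) and is described for 4 of the 7 genes, Dpp4, Dpp7, Dpp8 and Dpp9. The window of Dpp4 is printed because this gene had the widest range of levels across the libraries. The line gives the 250 bases upstream of the gene's start, 5′ to 3′ on the gene's strand, with CpG dinucleotides in capitals. The window is chr2:62412232-62412481, on the minus strand.
Dpp4: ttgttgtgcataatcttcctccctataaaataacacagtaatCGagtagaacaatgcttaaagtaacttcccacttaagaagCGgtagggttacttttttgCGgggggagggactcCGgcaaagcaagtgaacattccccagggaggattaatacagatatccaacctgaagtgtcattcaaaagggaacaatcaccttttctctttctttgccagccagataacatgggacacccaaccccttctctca
The Dpp4 window held 4 CpG and was 43.6% G or C. Over 32851 promoters of the same length in the RefSeq table, which leave out 1 chromosome, the median was 6 CpG and 52.4% G or C. The windows of Dpp8, Dpp7 and Dpp9 held 17, 9 and 8 CpG. The letters GGGCGG, searched on both strands, were in the Dpp7 and Dpp8 windows and in 32.7% of those 32851 promoters. TATAAA, also searched on both strands, was in the Dpp4 window alone among the 4, beginning 227 bases upstream of the start, and in 12.4% of the 32851. TTCNNNGAA and TGANTCA were in none of the 4 windows and in 7.02% and 6.75% of the 32851, and CCAAT was in the Dpp9 window and in 33.8%. These are matches of letters and say nothing of binding.

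Total counts ran from 21706345 to 25357403 per library, and all 7 genes were among the 15920 that passed the filter on low counts. Levels are given as CPM, read counts scaled to library size with edgeR's trimmed mean of M values. The mitochondrial genome gave 0.554% to 0.633% of the counts of the 3 libraries numbered 2, and 2.83% and 4.33% of the counts of the libraries numbered 1, from SAT and from the VAT CD26-CD142+ pair. All 8 general fat progenitor markers examined, Pdgfra and Pdgfrb among them, reached 1 CPM in every library. F3 stood at 5.32 CPM in SAT library 2 and 618 CPM in SAT library 1, at 99.1 CPM in the VAT CD26+CD142+ library and at 379 and 241 CPM in the VAT CD26-CD142+ pair. It was low in the SAT library titled CD142+ and high in the SAT library titled CD142-, so F3 too went with the SAT library names and against the titles.

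Dpp4 (ENSMUSG00000035000, chr2:62330073-62412231 in mm10, minus strand) was the gene with the widest range. It stood at 1007 CPM in SAT library 2 and 6.58 CPM in SAT library 1. It stood at 417 CPM in the VAT CD26+CD142+ library and at 5.13 and 6.58 CPM in the VAT CD26-CD142+ pair. Of the 2 high libraries, one is the VAT library gated as CD26+, and the other, SAT library 2, is titled CD26- but named for CD26. The other 3 libraries lay within 1.5 CPM of each other, and their 95% Poisson intervals, which cover counting error only, overlapped. Since CD26 was the sorting marker, Dpp4 checks the labels: it went with the gate in VAT and with the library names in SAT, and against the SAT titles. The antisense gene Gm13561 shares 232 exonic bases with Dpp4 and had 79 counts in SAT library 2 and at most 27 counts in any other library, against 22322 counts of Dpp4 in SAT library 2.

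Fap (ENSMUSG00000000392, chr2:62500943-62574075, minus strand) stood higher in the SAT libraries than in the VAT libraries. It stood at 114 and 139.8 CPM in SAT libraries 2 and 1, and at 70.6 CPM in the VAT CD26+CD142+ library and 92.3 and 66.4 CPM in the VAT CD26-CD142+ pair. Both SAT libraries lay above all 3 VAT libraries, with means of 127 ± 18.2 CPM in SAT (SD, n = 2) and 76.4 ± 13.9 CPM in VAT (SD, n = 3). Fap was the 1 gene of the 7 with SAT above VAT in every library, an order that 9.64% of all tested genes also showed. SAT lay wholly above or wholly below VAT for 19.8% of all tested genes, and Fap did not pass in the test of depot given below.

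**Figure D1:**
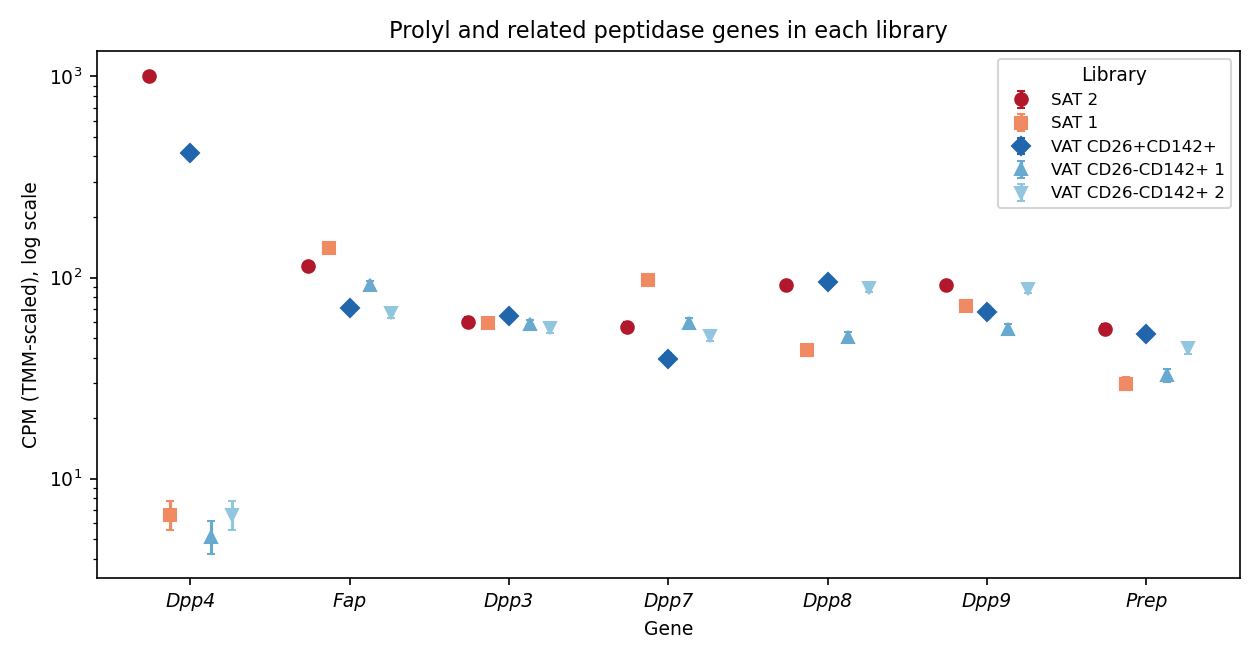
CPM of each of the 7 genes (log axis) in each of the 5 libraries; bars are 95% Poisson intervals, which cover counting error only. Dpp4 runs from 5.13 to 1007 CPM, Dpp3 stays between 55.9 and 64.6 CPM, and both SAT points of Fap lie above its VAT points.

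The cytosolic DPP8 and DPP9 are close paralogs that hold the NLRP1 inflammasome in check. Dpp8 (ENSMUSG00000032393, chr9:65032414-65082651, plus strand) stood at 91.7 and 43.4 CPM in SAT libraries 2 and 1, and at 94.8 CPM in the VAT CD26+CD142+ library and 50.7 and 88.8 CPM in the VAT CD26-CD142+ pair. Its libraries numbered 2 lay between 88.8 and 94.8 CPM and its libraries numbered 1 at or below 50.7 CPM, in both depots. Dpp9 (ENSMUSG00000001229, chr17:56186807-56218905, minus strand) stood at 91.8 and 71.9 CPM in SAT libraries 2 and 1, at 67.5 CPM in the VAT CD26+CD142+ library and at 55.7 and 87.3 CPM in the VAT CD26-CD142+ pair. Dpp9 was lower in library 1 than in library 2 of both SAT and the VAT pair, but the VAT CD26+CD142+ library lay between them. An antisense gene, Gm47350, shares 316 exonic bases with Dpp8 and had at most 8 counts in any library.

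Prep (ENSMUSG00000019849, chr10:45067203-45167198, plus strand), which encodes prolyl endopeptidase, an enzyme that cuts inside short peptides, stood at 55.5 and 29.7 CPM in SAT libraries 2 and 1. In VAT it stood at 52.3 CPM in the CD26+CD142+ library and at 32.6 and 44.4 CPM in the CD26-CD142+ pair. As with Dpp8, every library numbered 2 lay above every library numbered 1. Dpp3 (ENSMUSG00000063904, chr19:4907229-4928287, minus strand), the zinc peptidase, stood at 60.4 and 59.7 CPM in SAT libraries 2 and 1, at 64.6 CPM in the VAT CD26+CD142+ library and at 58.5 and 55.9 CPM in the VAT CD26-CD142+ pair. It hardly varied. Its highest library was 1.16 times its lowest, and 2.12% of the 10162 genes that reached 10 CPM had a smaller range.

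Dpp7 (ENSMUSG00000026958, chr2:25352276-25356359, minus strand) is the lysosomal member and a relative of Prcp. It stood at 56.7 and 97.7 CPM in SAT libraries 2 and 1, at 39.5 CPM in the VAT CD26+CD142+ library and at 59.6 and 51.1 CPM in the VAT CD26-CD142+ pair. Its 2 highest libraries were those numbered 1, the opposite of Dpp8 and Prep. Every library numbered 2 lay above every library numbered 1 for 3 of the 7 genes (Dpp4, Dpp8 and Prep) and for 25.1% of all tested genes, and below for Dpp7 and for 24.2%. In a test of the number with depot as a term, chosen after seeing these values, Dpp8 was the 1 of 7 that passed in edgeR (log2 difference 0.95, adjusted p = 0.0441), where 5.26% of all tested genes did. The mitochondrial share was also higher in the libraries numbered 1, and its part in these levels was not tested. Across the 5 libraries, the highest level was 2.47 times the lowest for Dpp7, 2.18 times for Dpp8, 2.11 times for Fap, 1.87 times for Prep and 1.65 times for Dpp9. The median gene that reached 10 CPM had a ratio of 1.80, computed with 1 CPM added to each value.

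To compare genes with each other, CPM was divided by the deposited gene length in kilobases. On this scale Dpp4 was the highest of the 7 in SAT library 2, at 159 CPM per kb, and in the VAT CD26+CD142+ library, at 66.0 CPM per kb. It was the lowest in the other 3 libraries, at 1.04 CPM per kb in SAT library 1 and at 0.812 and 1.04 CPM per kb in the VAT CD26-CD142+ pair. Among the others, Dpp9, Dpp8 and Prep kept their order in every library, while Dpp3, Fap and Dpp7 changed places. Dpp7 was the highest of these in SAT library 1 and the lowest of the 3 in SAT library 2 and the VAT CD26+CD142+ library. Dpp3 (20.9 to 24.1 CPM per kb over the 5 libraries), Fap (11.7 to 24.7 CPM per kb) and Dpp7 (11.8 to 29.3 CPM per kb) overlapped and took the upper places. Dpp9 followed at 7.06 to 11.6 CPM per kb, then Dpp8 at 3.17 to 6.92 and Prep at 2.72 to 5.08, and the ranges of Dpp8 and Prep overlapped. In the VAT CD26-CD142+ pair the order was Dpp3, Dpp7, Fap, Dpp9, Dpp8, Prep and Dpp4, where Dpp7 and Fap overlapped, as did Dpp8 and Prep.

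The order of the surface pair turned round between libraries. Dpp4 was 7.91 times Fap per kb in SAT library 2 and 5.29 times Fap in the VAT CD26+CD142+ library. In the other libraries Fap was the higher, 23.7 times Dpp4 per kb in SAT library 1 and 20.1 and 11.3 times in the VAT CD26-CD142+ pair.

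Depot was compared over all gates, a contrast that does not depend on the conflicting SAT gates. The depots differ in their mix of gates: by title SAT has a CD142- library, while every VAT library was gated as CD142+. A difference by depot thus cannot be told apart from one by the mix of gates. None of the 7 genes passed (edgeR quasi-likelihood test, Benjamini-Hochberg adjusted p under 0.05 over all tested genes), where 0.0503% of all tested genes did. At an unadjusted p under 0.05 the count was 1 of 7, which was Fap, and 1076 of the 15920 genes tested, and DESeq2 and limma-voom also passed 0 of 7. Fap was 0.73 higher in SAT on the log2 scale (SE 0.25, 95% interval 0.105 to 1.36, adjusted p = 0.612). Dpp7 differed by 0.62 (SE 0.33, interval −0.20 to 1.44, adjusted p = 0.901). For Dpp3 the difference was 0.01 with an interval of −0.49 to 0.51, which bounds it more closely than for any other gene of the 7. Dpp8 (−0.21), Dpp9 (0.22) and Prep (−0.02) had intervals that reached at least 0.89 above 0, and Dpp4 (1.83) had an interval of −4.10 to 7.75. The median over the 7 genes was 0.22, and 0.12 without Dpp4, against 0.01 over all tested genes. Mesothelial markers also differed in the direction opposite to Fap. The sum of 7 such markers was 4.19 and 64.7 CPM in SAT libraries 2 and 1 and 338, 115 and 170 CPM in VAT. Of the 7, 6 were lower in SAT, of which Wt1 passed. Most of the sum was Wt1 in the VAT CD26-CD142+ pair (113 and 154 CPM) and Krt19 in SAT library 1 (63.7 CPM). Only the VAT CD26+CD142+ library had all 7 at 1 CPM or more. The VAT CD26-CD142+ pair had 1 and 5 of them at that level, and each SAT library had 1. Msln was at 0 in both SAT libraries. The part of the mesothelial markers in the Fap difference was not tested.

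Within VAT, where title and name agree on the gate, the CD26+CD142+ library was set against the CD26-CD142+ pair. Dpp4, the sorting marker, was the 1 gene of the 7 that passed, where 1.6% of all tested genes did, at a log2 difference of 6.15 (SE 0.54, 95% interval 5.01 to 7.30, adjusted p = 6.72e-05). Fap differed by −0.17 (interval −1.19 to 0.86), and its CD26+CD142+ value of 70.6 CPM lay inside the range of the pair. Dpp8 and Prep each differed by 0.44 (intervals −0.60 to 1.49 and −0.57 to 1.46). Dpp7 differed by −0.49 (−1.52 to 0.54), Dpp3 by 0.18 (−0.82 to 1.17) and Dpp9 by −0.08 (−1.12 to 0.96). The adjusted p was 1.00 for each of these 6 genes. The interval for Dpp8, for example, held differences of up to 2.81-fold, so equal levels are not shown. The CD26+CD142+ library lay outside the range of the pair for 5 of the 7 genes and for 64.6% of all tested genes. The fit takes its spread from the pair alone, and the lone libraries were assumed to vary like it. In this contrast all 8 other CD26 interstitial progenitor markers rose and 7 of them passed. Among these were Bmp7, a growth factor of the BMP family, at 5.44 (adjusted p = 6.72e-05) and Pi16, a marker of adventitial fibroblasts, at 2.77 (adjusted p = 0.0134). Of 6 CD142 progenitor markers 0 passed in edgeR, while 5 passed in DESeq2 and 1 in limma-voom. How many of all tested genes passed within VAT in DESeq2 and limma-voom is not given here. An unadjusted p under 0.05 was held by 5 of the 6 and by 1334 of the 15920 genes tested. Mesothelial markers were higher in the CD26+CD142+ library for 6 of 7, of which Msln and Gpm6a passed. The sum of 5 endothelial markers was 298 CPM in the CD26+CD142+ library and 69.7 and 73.5 CPM in the pair, most of it Tek, which encodes an angiopoietin receptor, while Pecam1, the gene of CD31, stood between 2.32 and 7.26 CPM in all 5 libraries. The sum of 9 leukocyte markers lay between 8.98 and 31.6 CPM in all 5, with Ptprc, the gene of CD45, under 1 CPM in each. What these markers contribute to the contrast was not tested.

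The gate was also compared over both depots with depot as a term. In VAT both sides were gated as CD142+, while F3 stood at 5.32 and 618 CPM in SAT libraries 2 and 1. In SAT a difference by CD26 thus cannot be told apart from one by CD142. With SAT by library name, Dpp4 was 6.64 higher in CD26+ libraries (SE 0.40, adjusted p = 0.0368) and was again the 1 gene of the 7 that passed, where 0.597% of all tested genes did. Dpp7 was 0.61 lower (log2 difference −0.61, SE 0.22, 95% interval −1.17 to −0.06), and its adjusted p was 0.283. Dpp8 differed by 0.72 (SE 0.34, interval −0.12 to 1.56, adjusted p = 0.361) and Prep by 0.64 (SE 0.26, interval −0.01 to 1.29, adjusted p = 0.316). Fap (−0.22, interval −0.84 to 0.40), Dpp9 (0.11) and Dpp3 (0.11, interval −0.40 to 0.62) did not pass. Without VAT CD26-CD142+ library 2, Dpp8 at 1.00 (adjusted p = 0.0396) and Prep at 0.80 (adjusted p = 0.0453) passed as well. In the 4 libraries left, the gate by library name and the library number are the same, so these calls cannot be told apart from a difference by number. The call on Dpp4 was lost when the library number was a block (adjusted p = 0.255, log2 difference 6.21).

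With SAT by title, 0 of the 7 genes passed, and 0% of all tested genes did. Likewise 0 of the 7 had an unadjusted p under 0.05, DESeq2 and limma-voom passed 0 of 7, and 140 of all genes had an unadjusted p under 0.05 in edgeR. Dpp4 differed by 4.20 with an SE of 4.05, since this grouping puts SAT library 1, at 6.58 CPM, with the VAT CD26+CD142+ library, at 417 CPM. The 6 other genes had differences between −0.20 and 0.09. When SAT library 2 or SAT library 1 was left out, Dpp4 alone of the 7 passed, at 6.16 and 6.17, and it passed at −7.27 when the CD26+CD142+ library of VAT was left out. The difference between the depots in the gate effect was tested as well. By title Dpp4 was at −13.41 (SE 1.00, adjusted p = 2.89e-06), the 1 of 7 that passed, where 6.61% of all tested genes did. That value rests on SAT titles that Dpp4 and F3 go against, and its spread comes from 1 VAT pair, so it cannot be read as a difference between depots. By library name it passed for 0 of 7 in edgeR, DESeq2 and limma-voom, with 0 of 7 at an unadjusted p under 0.05 and 0.251% of all tested genes passing, and Dpp4 was at 1.10 (SE 0.79, adjusted p = 1.00).

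**Figure D2:**
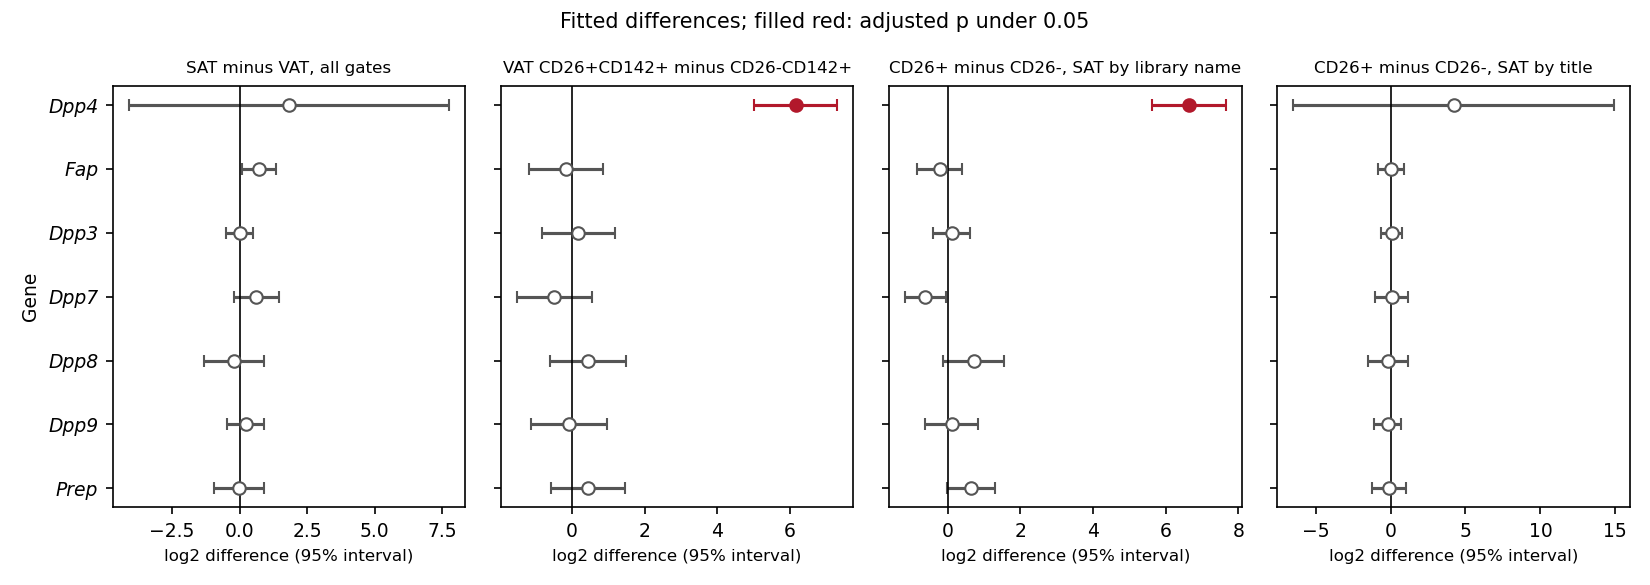
Log2 difference of each gene (points) with its 95% interval (bars) for SAT minus VAT, for CD26+CD142+ minus CD26-CD142+ within VAT, and for CD26+ minus CD26- with depot as a term, with SAT by library name and by title. Red points passed at an adjusted p under 0.05, which was Dpp4 within VAT (6.15) and by library name (6.64); the panels have axes of their own.

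The depots were compared within the CD142+ gate as well, with the SAT library set against the VAT CD26-CD142+ pair, whose means were 5.86 ± 1.02 CPM for Dpp4, 79.3 ± 18.4 CPM for Fap and 55.4 ± 6.02 CPM for Dpp7 (SD, n = 2). By title, which takes SAT library 2, Dpp4 was 7.42 higher in SAT (adjusted p = 1.79e-06) and was the 1 of 7 that passed, where 6.48% of all tested genes did. F3, the gene of CD142, was at −5.86 in this comparison (adjusted p = 7.93e-05), so the SAT library goes against its CD142+ title and the Dpp4 difference cannot be read as one of depot. Fap was at 0.52 (adjusted p = 0.826). By library name, which takes SAT library 1, 0 of 7 passed in edgeR, DESeq2 or limma-voom, 0 of 7 had an unadjusted p under 0.05, and 2.36% of all tested genes passed. There Fap and Dpp7 were each at 0.82 (SE 0.47 and 0.46, adjusted p = 0.736 and 0.724), Dpp8 was at −0.68 (adjusted p = 0.896) and Dpp4 was at 0.17 (adjusted p = 0.994). The call on Dpp4 thus went with the choice of label, while Fap was higher in SAT under both without passing.

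Between single libraries there is no test, and ratios carry exact intervals for counting error only. In SAT library 2 over SAT library 1, Dpp4 was at 153 (131 to 181) and Dpp8 at 2.11 (1.96 to 2.28), and these 2 of the 7 genes were at least 2-fold apart, where 13.6% of all tested genes were. Prep was at 1.87 (1.70 to 2.05), Dpp9 at 1.28 (1.20 to 1.36) and Dpp3 at 1.01 (0.938 to 1.09), while Fap at 0.816 (0.774 to 0.859) and Dpp7 at 0.580 (0.541 to 0.622) were lower in SAT library 2. SAT library 1 had the highest level of epithelial markers: the sum of 7 epithelial markers was 0.271 CPM in SAT library 2, 144 CPM in SAT library 1, 13.2 CPM in the VAT CD26+CD142+ library and 1.28 and 1.33 CPM in the VAT CD26-CD142+ pair. Csn3, a milk casein, was at 17.0 CPM in SAT library 1 and at 0 in the other 4 libraries, and the part of these transcripts in the ratios was not tested.

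SAT library 2 and the VAT CD26+CD142+ library are the 2 with high Dpp4. In SAT library 2 over the VAT library, Dpp4 was at 2.41 (2.36 to 2.47) and was the 1 gene at least 2-fold apart, where 5.24% of all tested genes were. Fap was at 1.61 (1.52 to 1.72), while Dpp3 (0.935), Dpp8 (0.966) and Prep (1.06) had intervals that held 1. In SAT library 1 over the same VAT library, 3 of 7 were at least 2-fold apart, where 13.8% of all tested genes were. These were Dpp4 at 0.0158, Dpp7 at 2.47 and Dpp8 at 0.458, and Fap was at 1.98 (1.87 to 2.10).

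Dpp4 and Fap are neighbours on chromosome 2, with the start of Fap 161.844 kb upstream of that of Dpp4 on the same strand and the glucagon gene Gcg between them. The table held 12 other genes within 500 kb of the span from Dpp4 to Fap, of which 5 were tested. Gcg, whose products are DPP4 substrates, was not among them: it was at 0 in SAT library 2, 0.433 CPM in SAT library 1, 0 in the VAT CD26+CD142+ library and 0 and 0.0860 CPM in the VAT CD26-CD142+ pair. The sensor of viral RNA Ifih1 stood at 59.0 and 25.9 CPM in SAT libraries 2 and 1, at 45.1 CPM in the VAT CD26+CD142+ library and at 25.6 and 30.2 CPM in the VAT CD26-CD142+ pair. Its 2 highest libraries were those with high Dpp4. The bicarbonate transporter gene Slc4a10 had the same 2 libraries on top, at 3.43 and 0.659 CPM, with at most 0.216 CPM elsewhere, and so did the antisense Gm13561, at 3.56 and 1.11 CPM with at most 0.0865 CPM elsewhere, and Gca, at 3.38 and 7.63 CPM with at most 3.18 CPM elsewhere, where the 3.38 and 3.18 CPM rest on 75 and 74 counts. The remaining tested neighbour, Kcnh7, had another order. It stood at 0.361 and 0 CPM in SAT libraries 2 and 1, at 0.824 CPM in the VAT CD26+CD142+ library and at 0.229 and 0.473 CPM in the VAT CD26-CD142+ pair. How many of all tested genes had the same 2 libraries on top was not counted. Since no source states that strand was used in counting, reads of Gm13561 and Dpp4 cannot be told apart where they overlap.

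All 5 tested neighbours were higher in the VAT CD26+CD142+ library than in the pair (median log2 difference 1.52, against −0.03 over all tested genes), but 0 of 5 passed in edgeR or limma-voom. DESeq2 passed neither Ifih1 nor Gca and gave no adjusted p for Gm13561, Slc4a10 and Kcnh7. An unadjusted p under 0.05 was held by 3 of 5 and by 1334 of the 15920 genes tested. With SAT by library name, 0 of 5 passed for the gate in edgeR and limma-voom, while DESeq2 passed 2. DESeq2 also passed more of all tested genes than edgeR did in that comparison. There 4 of 5 had an unadjusted p under 0.05, and so did 2551 of the 15920 genes tested. For depot over all gates 0 of 5 passed by any of these tools, with 0 of 5 at an unadjusted p under 0.05. Between depots in the CD142+ gate by title, 2 of 5 passed, where 6.48% of all tested genes did. Gm13561 (7.02, adjusted p = 0.00494) and Slc4a10 (6.12, adjusted p = 0.0117) rose together with Dpp4, SAT library 2 standing for SAT in each. Both had at most 2 counts in each library of the VAT pair. Dpp4 and F3 go against the title of SAT library 2, so these differences cannot be read as ones of depot. By library name 0 of 5 passed in edgeR, DESeq2 or limma-voom.

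**Figure D3:**
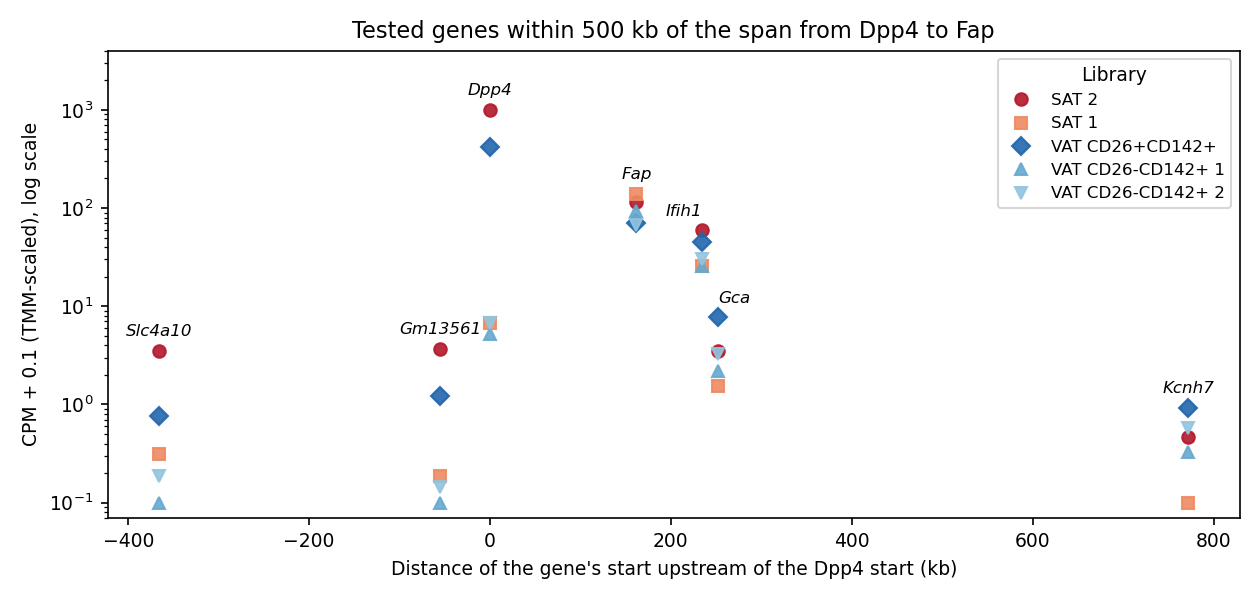
CPM plus 0.1 (log axis) of the tested genes within 500 kb of the span from Dpp4 to Fap, by the distance of each gene's start upstream of the Dpp4 start in kb, in each of the 5 libraries; Kcnh7 is included because its body reaches into that window. SAT library 2 and the VAT CD26+CD142+ library are the 2 highest for Dpp4, Ifih1, Gca, Slc4a10 and Gm13561. Fap is highest in SAT library 1, and for Kcnh7 VAT CD26-CD142+ library 2 lies above SAT library 2.

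The genes most like Dpp4 and Fap over the 5 libraries were found among 9868 protein-coding genes by the root mean square difference of log2(CPM + 1), each gene centred on its own mean. The 4 nearest to Dpp4 were Dact2 (0.69), which encodes a Wnt and TGF-beta pathway modulator, Mrgprg (0.72), a receptor gene, Bmp7 (0.80) and Efhd1 (0.86), which encodes a mitochondrial calcium-binding protein. Dact2 and Bmp7 are also on the list of CD26 interstitial progenitor markers. Dact2 stood at 197 and 2.81 CPM in SAT libraries 2 and 1, at 216 CPM in the VAT CD26+CD142+ library and at 2.15 and 5.55 CPM in the VAT CD26-CD142+ pair. Mrgprg was high in SAT library 2 at 126 CPM and at 16.6 CPM in the VAT CD26+CD142+ library, and at most 0.0917 CPM elsewhere.

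The 4 genes nearest to Fap were Blvrb (0.05), which encodes biliverdin reductase B, Ifngr2 (0.08), a chain of the interferon gamma receptor, Dtwd1 (0.09) and C1ra (0.09), a complement protease. Blvrb stood at 97.4 and 126 CPM in SAT libraries 2 and 1, at 60.5 CPM in the VAT CD26+CD142+ library and at 74.9 and 57.2 CPM in the VAT CD26-CD142+ pair. Like Fap, it was highest in SAT library 1 and lowest in VAT CD26-CD142+ library 2. By the same measure Fap stood 3.26 from Dpp4, and Dpp7, at 0.22 from Fap, was the closest to Fap of the 6 others. These distances describe 5 libraries, and a gene with a small range is near any other gene with a small range.

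**Figure D4:**
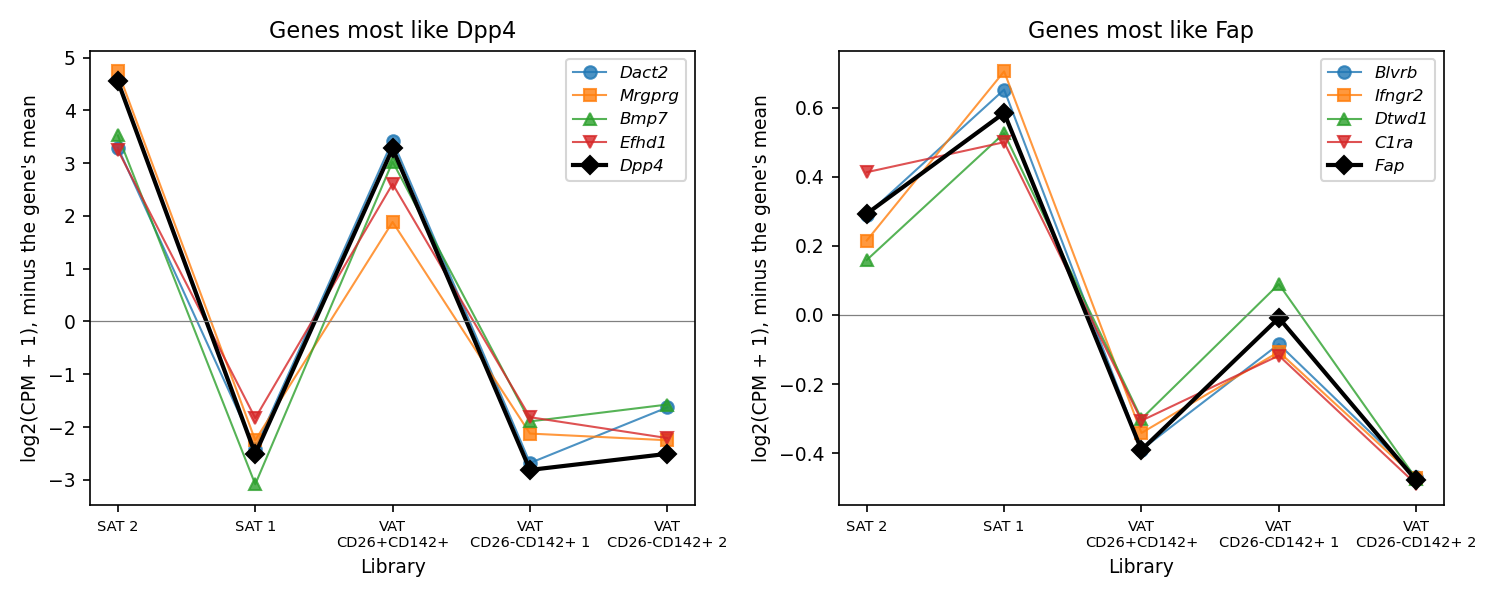
Centred log2(CPM + 1) in the 5 libraries for Dpp4 (left, black) and Fap (right, black) and the 4 protein-coding genes nearest to each (colours); lines only join points of a gene. Dpp4 and its neighbours are high in SAT library 2 and the VAT CD26+CD142+ library, Fap and its neighbours in the 2 SAT libraries.

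Among 9 other genes of proline-specific peptidases and their relatives, 7 were tested, and 0 of 7 passed in edgeR, DESeq2 or limma-voom for depot, for the gate within VAT or for the gate by library name. At an unadjusted p under 0.05 the counts were 1 of 7 for depot and 0 of 7 for both gate comparisons, against 1076, 1334 and 2551 of the 15920 genes tested. Prcp, which encodes a lysosomal carboxypeptidase and is the closest relative of Dpp7, stood at 47.9 and 35.0 CPM in SAT libraries 2 and 1, at 27.0 CPM in the VAT CD26+CD142+ library and at 28.8 and 18.2 CPM in the VAT CD26-CD142+ pair. As for Fap, both SAT libraries lay above all VAT libraries, and the difference of 0.75 did not pass (SE 0.30, adjusted p = 0.734). Dpp10, a relative of Dpp4 without enzyme activity, was at 0 in all 5 libraries, and Dpp6, another such relative, reached at most 0.216 CPM.

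Of 19 genes of reported DPP4 or FAP substrates, 11 were tested. For depot 0 of 11 passed in edgeR and limma-voom, and DESeq2 passed 5. Over all tested genes DESeq2 also passed more for depot than edgeR did. An unadjusted p under 0.05 was held by 5 of 11 and by 1076 of the 15920 genes tested. Of the 11, 10 were higher in SAT (median log2 difference 1.10, against 0.01 over all tested genes). The collagen gene Col1a1 stood at 7561 and 14812 CPM in SAT libraries 2 and 1, at 1513 CPM in the VAT CD26+CD142+ library and at 1508 and 2736 CPM in the VAT CD26-CD142+ pair, which is 2.54 higher in SAT (SE 0.52, adjusted p = 0.338). Both SAT libraries lay above all VAT libraries. Col1a2 (1.88) and Col3a1 (1.70) were also higher in SAT without passing. In the CD142+ gate by library name 2 of 11 passed, where 2.36% of all tested genes did: Cxcl9, an interferon-induced chemokine, at 3.44 (adjusted p = 0.00318) and Col1a1 at 2.80 (adjusted p = 0.0157), both higher in SAT library 1 than in the VAT pair. By title 1 of 11 passed, where 6.48% of all tested genes did, the chemokine gene Cxcl12 at −2.28 (adjusted p = 0.0366), which was lower in SAT library 2.

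Cxcl12, a substrate of DPP4, stood at 122 and 1764 CPM in SAT libraries 2 and 1, at 131 CPM in the VAT CD26+CD142+ library and at 763 and 426 CPM in the VAT CD26-CD142+ pair. The 2 libraries with high Dpp4 had the lowest Cxcl12. The difference did not pass in edgeR within VAT (−2.18, SE 0.62, adjusted p = 0.120) or by library name (−2.85, SE 0.55, adjusted p = 0.117), and DESeq2 passed it in both. Over the list, 0 of 11 passed in edgeR and limma-voom for either of these gate comparisons. An unadjusted p under 0.05 was held by 2 of 11 in each, against 1334 and 2551 of the 15920 genes tested. The peptide hormone genes Pyy, Grp and Gip were at 0 in all 5 libraries.

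Of 15 genes of binding partners and downstream proteins, 13 were tested, and 0 of 13 passed in edgeR or limma-voom for depot, the gate within VAT or the gate by library name. At an unadjusted p under 0.05 the counts were 2, 4 and 5 of 13, against 1076, 1334 and 2551 of the 15920 genes tested. DESeq2 passed 0, 1 and 4, and for depot and by library name it also passed more of all tested genes than edgeR did. Fibronectin (Fn1), which binds DPP4, stood at 13777 and 1558 CPM in SAT libraries 2 and 1, at 13016 CPM in the VAT CD26+CD142+ library and at 1348 and 4569 CPM in the VAT CD26-CD142+ pair. Ada, which encodes the adenosine deaminase that human DPP4 binds, ran the other way, at 2.89 and 16.9 CPM in SAT libraries 2 and 1, at 2.14 CPM in the VAT CD26+CD142+ library and at 11.7 and 7.74 CPM in the VAT CD26-CD142+ pair. With SAT by library name the differences were 2.58 for Fn1 (SE 0.62, adjusted p = 0.155) and −2.34 for Ada (SE 0.36, adjusted p = 0.083). Nlrp1a, a mouse gene of the inflammasome sensor that DPP9 restrains, was at 0 in all 5 libraries, and Nlrp1b reached at most 0.129 CPM.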

How the data were processed

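The authors deposited raw read counts per Ensembl gene for 5 libraries, with a gene length in another unit, bases, per the file headers. Per the submitters' processing notes, the tools were featureCounts 1.5.0-p3, HISAT2 2.0.5 and CASAVA, with the mm10 build; annotation release and strand setting are not given in the sources used here. All 7 genes have the same start and end in GENCODE mouse release M21 (GRCm38). Genes were kept by filterByExpr at 10 counts with depot as group, which left 15920 of 54532. Tests were edgeR 4.0.16 quasi-likelihood F tests (robust) with TMM scaling, in R 4.3.3, and p-values were adjusted by Benjamini-Hochberg over the 15920 genes, with 0.05 as the threshold. The SE is the log2 difference divided by the square root of F. Residual degrees of freedom were 3 for depot, 2 for the gate with depot as a term and 1 for fits of 4 groups, where lone libraries were assumed to vary like the VAT CD26-CD142+ pair. Alternatives used DESeq2 1.42.0, limma-voom (limma 3.58.1), other scalings and filters, a block and left-out libraries. The Dpp3 promoter is not reported here. The members and all gene lists were chosen with earlier results of these data known. All 7 members are named; of each list, genes that passed, genes at 0 and up to 4 of the largest differences per comparison could be named. Ifih1, Gcg, Dpp6 and Nlrp1b were otherwise named after their values were seen. Totals were 21706345 to 25357403 counts per library. Intervals for levels (exact Poisson) and ratios (exact conditional) at 95% hold counting error alone, because the labels describe no molecular identifiers and PCR copies count as reads.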

Additional observations from a re-analysis of the deposited data

Results flagged for a closer look

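The CD26 gate effect on Dpp4 differed between the depots when the SAT libraries went by title, by −13.41 on the log2 scale (SE 1.00, edgeR quasi-likelihood test, adjusted p = 2.89e-06). It was flagged because the test of the difference itself passed. In SAT, by title, Dpp4 stood at 6.58 CPM in the CD26+CD142- library and 1007 CPM in the CD26-CD142+ library, while in VAT it stood at 417 CPM in the CD26+CD142+ library and at 5.13 and 6.58 CPM in the CD26-CD142+ pair. With SAT by library name the same difference was 1.10 (SE 0.79, adjusted p = 1.00). Dpp4 encodes the sorted antigen CD26. F3, which encodes the other, CD142, stood by title at 618 CPM in the SAT CD26+CD142- library and 5.32 CPM in the SAT CD26-CD142+ library. Both genes go against the SAT titles and with the library names, so the value cannot be read as a difference between depots.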

How the results depend on the processing

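Fap was higher in SAT under all 13 alternatives for depot over all gates, between 0.57 and 0.89, with adjusted p from 0.243 to 1.00, and passed under none of them. None of the 7 genes passed for depot under any alternative, where Dpp4 had an adjusted p in 12 of the 13. Within VAT, Dpp4 alone passed under each of the 9 alternatives that could be tested, of 11 fitted. Without the CD26+CD142+ library the comparison within VAT could not be fitted. With SAT by title, the count of the 7 that passed ran from 0 to 1 without each library in turn; by library name it ran from 1 to 3. With the library number as a replicate block it was 0 by library name, and in SAT library 2 over SAT library 1 upper quartile scaling left 1 gene at least 2-fold apart in place of 2. Single genes turned direction as follows, the cause not tested. With the library number as a replicate block, Prep was at 0.0578 for depot, Fap at −0.0128 and Dpp7 at −0.0245 for the gate by title, and Fap at 0.11 and Dpp9 at −0.35 for the gate by library name. Under upper quartile scaling Dpp7 was at −0.0236 within the CD142+ gate by title. Without each library in turn, the depot difference ran from −4.46 to 6.44 for Dpp4, −0.0434 to 0.0704 for Dpp3, −0.86 to 0.22 for Dpp8 and −0.55 to 0.36 for Prep. Likewise the gate difference by title ran from −7.27 to 6.17 for Dpp4, −0.16 to 0.28 for Fap, −0.0288 to 0.19 for Dpp3, −0.48 to 0.77 for Dpp7, −1.09 to 0.46 for Dpp8 and −0.91 to 0.46 for Prep, and by library name from −0.0717 to 0.36 for Dpp9. The number that ends the library name is not stated to mark a batch, so the block describes a number only; fits of 4 groups left no degrees of freedom for it. How far the gate effect differed between the depots could be fitted but not tested without a library of the VAT CD26-CD142+ pair. It could not be fitted without any of the lone libraries. The differences within VAT and within the CD142+ gate could likewise be fitted but not tested without a library of that pair. In such untested fits single genes turned direction too. Fap reached 0.088 and Dpp9 0.285 within VAT. Within the CD142+ gate Dpp9 reached −0.27 by library name and Dpp7 −0.0762 by title. For the difference between the depots Fap reached 0.0932 by library name and Dpp9 0.0313 by title.

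Counts over all genes moved more. For depot 8 genes passed, against 70 with no filter, 465 in DESeq2, 0 in limma-voom (978 at an unadjusted p under 0.05), 5 with the replicate block and 0 to 17 without each library. Within VAT 254 passed, against 410 under upper quartile scaling, 491 with no filter and 356 to 383 without each library. By title 0 passed for the gate, against 16 in DESeq2 and 0 to 522 without each library. By library name 95 passed, against 775 with no filter, 1338 in DESeq2, 0 with the replicate block (1592 at an unadjusted p under 0.05) and 138 to 2034 without each library, the highest without VAT CD26-CD142+ library 2. In the CD142+ gate by library name 375 passed, against 727 with no filter. The count was 332 to 580 without SAT library 2 or the VAT CD26+CD142+ library, the only removals that left a test. For the difference between depots 1053 passed by title, against 1621 with no filter, and 40 by library name, against 136 under upper quartile scaling, 181 with no filter, 85 in DESeq2 and 9 in limma-voom.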

Other observations

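Dpp8, Prep and Dpp4 had every library numbered 2 above every library numbered 1, an order that 25.1% of all tested genes showed, and Dpp7 had the reverse order, which 24.2% showed. A test of the library number with depot as a term was added after these values were seen. Dpp8 was 0.95 higher in libraries numbered 2 (SE 0.12, 95% interval 0.61 to 1.29, edgeR adjusted p = 0.0441) and was the 1 of 7 that passed, where 5.26% of all tested genes did. Prep was at 0.71 (adjusted p = 0.0702), Dpp9 at 0.42 (adjusted p = 0.167), Fap at −0.37 (adjusted p = 0.120), Dpp7 at −0.57 (adjusted p = 0.125), Dpp3 at 0.03 (adjusted p = 0.873) and Dpp4 at 6.14 (SE 2.17, adjusted p = 0.150). The number and the gate by library name differ for 1 library only, VAT CD26-CD142+ library 2. There Dpp8 stood at 88.8 CPM and Prep at 44.4 CPM, nearer to the other libraries numbered 2 than to VAT CD26-CD142+ library 1 in the case of Dpp8, at 50.7 CPM, and about midway in the case of Prep, at 32.6 CPM. Dpp4 stood at 6.58 CPM there, with the CD26- libraries. The mitochondrial share of counts was between 0.554% and 0.633% in libraries numbered 2 and between 2.83% and 4.33% in those numbered 1, and what the number stands for was not tested. Prepl, a relative of Prep, stood at 20.7 and 13.4 CPM in SAT libraries 2 and 1, at 25.1 CPM in the VAT CD26+CD142+ library and at 25.3 and 16.8 CPM in VAT CD26-CD142+ libraries 2 and 1, at 0.61 for the number (adjusted p = 0.0695). Of the 7 tested relatives, 3 were higher and 4 lower in libraries numbered 2 (median log2 difference −0.009), and 0 passed in edgeR. An unadjusted p under 0.05 was held by 2 of the 7 and by 5058 of the 15920 genes tested.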
